A study of Mus musculus with 23 samples.

Results

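The immediate early transcription factor genes described here are Fos, Fosb, Jun, Junb, Atf3, Egr1, Nr4a1, Ier2, Ier3 and Csrnp1, which are 10 of the 41388 genes in the count table. They are the rows whose Ensembl ID carries 1 of these symbols in the GENCODE mouse annotation, and they were selected with their TMM-scaled CPM over the 5 groups in view. CPM gives a gene's count relative to the total gene count of its library, and TMM corrects that total for the make-up of each library. Because those values chose the genes, their levels and their differences between groups are given as a description. All 10 were among the 17148 genes that passed the filter on low counts. Polyadenylated RNA of whole lungs was sequenced, and each library came from a single male Balb/c mouse.

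The 5 groups were LPS+nAAT (n = 5), LPS+oxAAT (n = 5), LPS+recAAT (n = 5), LPS (n = 5) and air (n = 3). The mice of the first 4 groups inhaled an aerosol of bacterial lipopolysaccharide (LPS) at 0.21 mg/ml, in sessions of 10 min on 3 days, and the air group breathed clean air in the same way. Human alpha1-antitrypsin (AAT), a plasma inhibitor of neutrophil elastase, was injected into the peritoneum at 4 mg/kg 1 h after each exposure. It was given in native (nAAT), oxidized (oxAAT) or recombinant (recAAT) form, and lungs were collected 6 h after the last dose. Per the study's design text the injection was saline or an AAT preparation, and the labels name no genetic change in any group. The age of the mice is not given in the sources used here, and a further peptide of AAT named in that text was not analysed here.

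Immediate early genes are transcribed within minutes of a signal, from transcription factors that are already present in the cell and without new protein synthesis. Serum response factor with its ETS partners, and CREB, bind upstream of many of them and are activated through MAP kinases and cyclic AMP. Most of the mRNAs are short-lived, so a burst fades within hours unless the signal lasts. FOS and FOSB pair with JUN and JUNB to form AP-1, ATF3 is a related stress-induced factor, EGR1 is a zinc finger factor, and NR4A1 is an orphan nuclear receptor. CSRNP1 is a nuclear protein first described as induced by AXIN1, IER2 is a nuclear protein with roles in transcription, and IER3 is a stress-induced survival protein.

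Reads counted in genes ran from 14760113 to 47850884 per library, with a median of 28683719. The 23 libraries fell into 2 sets by the count of the mitochondrial gene mt-Nd6 relative to that of mt-Nd5, a split that the labels do not name. The ratio was 0.338% to 1.14% in the first set of 15 libraries, which held every LPS+nAAT, LPS and air library and LPS+oxAAT replicates 5101 and 5102. It was 3.39% to 4.50% in the second set of 8 libraries, which held LPS+oxAAT replicates 5103, 5104 and 5105 and every LPS+recAAT library. Recombinant AAT and the second set therefore cannot be told apart within the LPS+recAAT group. A model term for library set is estimated from the LPS+oxAAT lungs alone, 2 of the first and 3 of the second set. All 5 lung markers were abundant in every library, with Sftpc between 11562 and 18741 CPM.

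Promoter sequences are shown for Csrnp1, Nr4a1 and Fos, whose levels were lower in some AAT groups as described further on, and for Junb, whose groups overlapped in every comparison. They are the 250 bases before the start site in RefSeq on GRCm38.p6, written 5′ to 3′ on the gene's strand, with motif matches in capitals. The Csrnp1 window is chr9:119983024-119983273 on the minus strand and is 1 of the 4 windows listed for that gene. For Nr4a1 it is chr15:101266596-101266845 on the plus strand, for Fos chr12:85473640-85473889 on the plus strand, and for Junb chr8:84978749-84978998 on the minus strand.
Csrnp1: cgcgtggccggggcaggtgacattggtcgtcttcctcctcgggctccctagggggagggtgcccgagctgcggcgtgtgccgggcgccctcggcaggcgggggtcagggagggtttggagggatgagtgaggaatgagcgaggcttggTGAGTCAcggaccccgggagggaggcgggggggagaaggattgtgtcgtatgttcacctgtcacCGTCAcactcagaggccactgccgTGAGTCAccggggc
Nr4a1: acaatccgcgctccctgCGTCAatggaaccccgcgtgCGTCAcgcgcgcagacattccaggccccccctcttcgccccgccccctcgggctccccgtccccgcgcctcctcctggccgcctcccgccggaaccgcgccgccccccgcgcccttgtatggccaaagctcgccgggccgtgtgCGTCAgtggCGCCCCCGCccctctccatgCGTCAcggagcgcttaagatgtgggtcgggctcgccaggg
Fos: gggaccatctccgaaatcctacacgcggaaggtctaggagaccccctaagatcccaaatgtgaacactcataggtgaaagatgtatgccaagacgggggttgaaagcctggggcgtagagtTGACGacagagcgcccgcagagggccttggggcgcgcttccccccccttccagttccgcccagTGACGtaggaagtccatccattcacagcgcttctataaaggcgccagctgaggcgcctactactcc
Junb: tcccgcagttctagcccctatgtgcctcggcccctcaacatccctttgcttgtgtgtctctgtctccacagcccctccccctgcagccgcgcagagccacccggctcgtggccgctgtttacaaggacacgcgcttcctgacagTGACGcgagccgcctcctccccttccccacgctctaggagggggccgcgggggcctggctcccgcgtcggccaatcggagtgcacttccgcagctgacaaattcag

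The motifs were searched on both strands of all 32851 RefSeq windows of that length. TGACG, the core of the cyclic AMP response element (CRE), was held by 6 of the 8 genes with a window (Fos, Fosb, Junb, Atf3, Nr4a1 and Csrnp1) and by 17.8% of all windows. Fos had TGACG at 129 to 125 and at 66 to 62 bases before its start. In Nr4a1 its reverse complement lay 233, 213, 69 and 40 bases before the start. The AP-1 site TGANTCA was in 6.75% of all windows and, among these genes, in Csrnp1. It lay at 102 to 96 and 14 to 8 bases before the start of the window shown, and the other Csrnp1 windows held none. The shares are per window, while a gene was counted if any of its windows matched. The EGR site GCGNGGGCG was in 4.70% of all windows and in Nr4a1 and Fosb. Within these windows, none of the 8 genes held the full CRE TGACGTCA (1.55% of windows) or the NR4A site AAAGGTCA (1.34%). None held a CArG box (1.47%), the site of serum response factor, in its windows. Sequence further upstream was not searched, so a site there would not have been seen. The full CRE contains the core TGACG. The shares over all windows were not matched for GC content, which was 54.4% to 78% in the windows of these genes. Windows for Egr1 and Ier2 were not used here.

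The genes also shared features of their transcripts, set here beside the 15028 tested protein-coding genes. Their main transcripts had a median of 3 exons, against 9 over all those genes, and all 10 lay at or below that value. Jun, Junb and Ier2 had 1 exon, and Nr4a1 had the most, with 8. The GC content had a median of 56.5%, against 50.6% over all genes, and was above it in all 10. AUUUA, the pentamer of AU-rich elements that mark unstable mRNAs, occurred a median of 3 times in the 3′ untranslated region, against 1 over all genes. The count was 5 in Csrnp1 and Ier3, 4 in Fos and Jun, and 0 in Ier2. Per kilobase of that region the median was 3.67, against 1.12, and 8 of the 10 were at or above the value over all genes.

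Per kilobase of exon, which allows levels to be compared between genes, Ier3 had the highest mean level over all 23 lungs at 105 ± 20.8 CPM per kb (SD). Jun followed at 65.6 ± 7.21, and then Ier2 at 38.2 ± 5.58 and Junb at 32.2 ± 5.83 CPM per kb, whose ranges over the lungs overlapped. Fos had 17.4 ± 4.13 CPM per kb. Nr4a1, Csrnp1 and Egr1 lay within their spread of each other at 9.71 ± 4.98, 9.01 ± 4.89 and 8.87 ± 3.70 CPM per kb. Atf3 had 3.94 ± 0.529 and Fosb 0.463 ± 0.128 CPM per kb. Fosb rested on 36 to 197 reads per library, and every other gene on at least 117.

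Between groups, Csrnp1 differed most regularly: its mean level was lower in the lungs of all 3 AAT groups than in LPS and air lungs, with no mouse overlapping. Nr4a1 and Fos had lower means in LPS+nAAT and LPS+recAAT lungs than in LPS and air lungs. These groups overlapped with LPS lungs, except for Nr4a1 in LPS+recAAT lungs. Egr1 was highest in LPS+oxAAT lungs. Jun, Junb, Fosb, Atf3, Ier2 and Ier3 had group means within a factor of 1.38 of each other. In whole lung RNA, fewer cells of a type and less RNA per cell cannot be told apart.

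**Figure D1:**
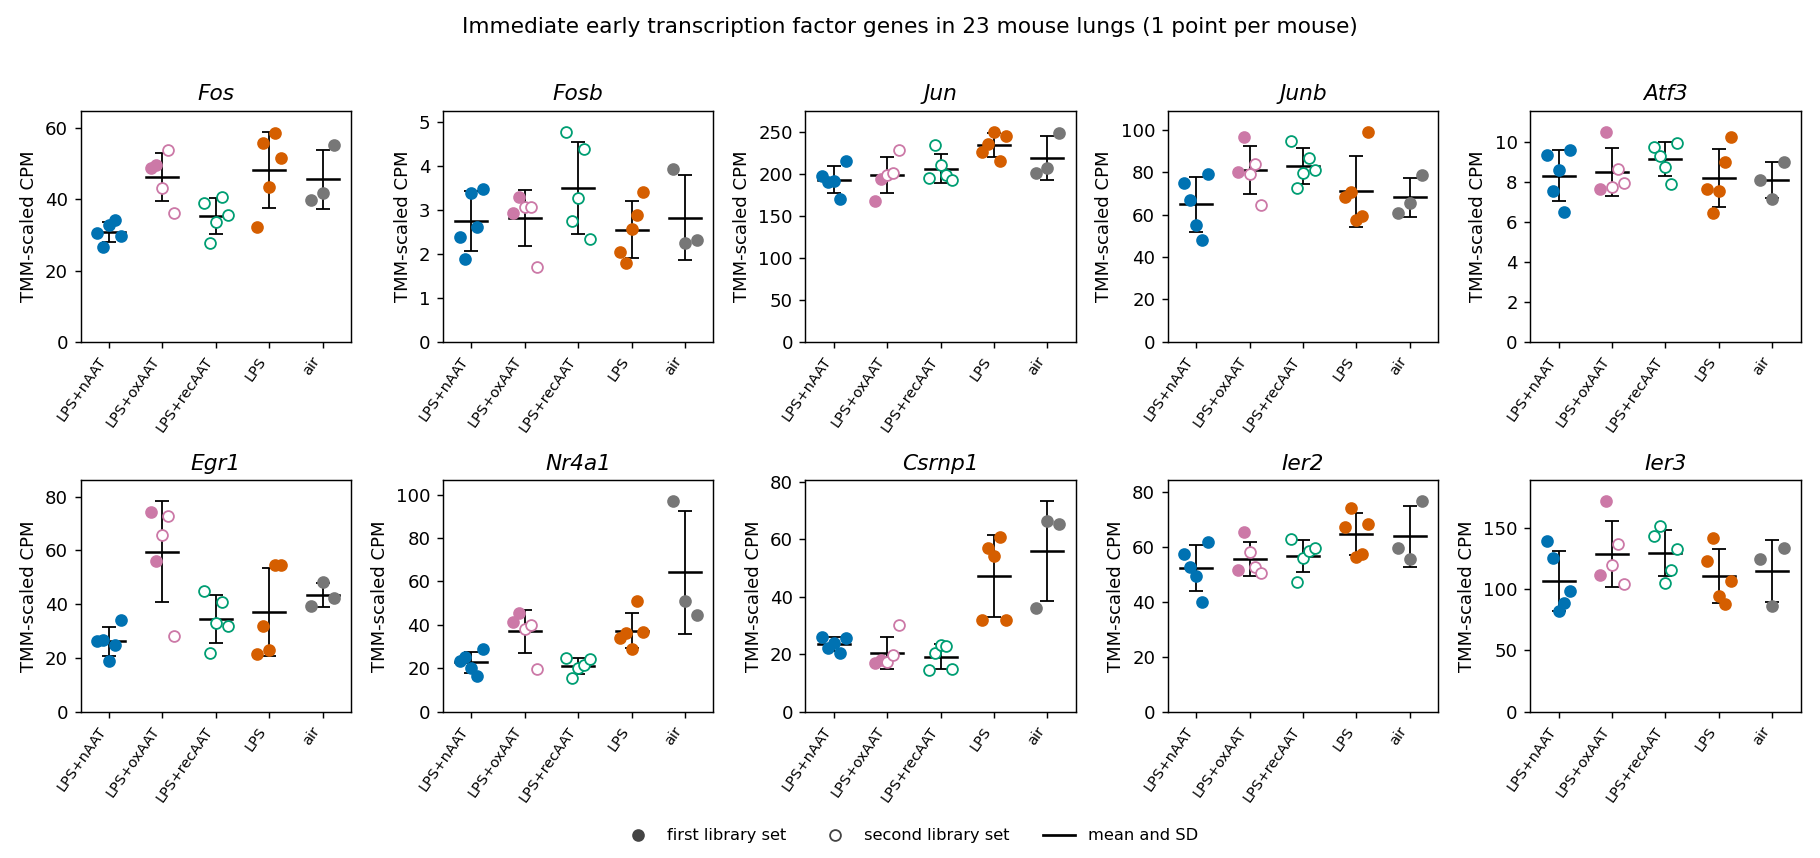
TMM-scaled CPM of the 10 genes (vertical axes, linear, from 0) in each of the 23 lungs, by group, with filled points for the first and open points for the second library set, and lines for the group mean and SD. Csrnp1 lies at 14.4 to 30.2 CPM in the AAT groups and at 31.7 to 66.5 CPM in LPS and air lungs.

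Fos (ENSMUSG00000021250, chr12:85473890-85477273 on GRCm38, plus strand, 4 exons) encodes the inducible partner of JUN in AP-1. It had 30.6, 26.7, 32.7, 34.1 and 29.8 CPM in LPS+nAAT lungs. LPS+oxAAT lungs had 48.8, 49.7, 43.1, 53.8 and 36.2 CPM, and LPS+recAAT lungs had 38.9, 27.6, 33.7, 40.7 and 35.7 CPM. LPS lungs had 32.1, 55.8, 43.3, 58.5 and 51.6 CPM, and air lungs had 39.7, 41.8 and 55.2 CPM. Every LPS+nAAT lung was below every LPS+oxAAT and every air lung, while LPS replicate 1101, at 32.1 CPM, overlapped the LPS+nAAT group. The group means, from the lowest, were 30.8 in LPS+nAAT, 35.3 in LPS+recAAT, 45.6 in air, 46.3 in LPS+oxAAT and 48.3 CPM in LPS, and the last 3 differed by less than their SDs of 6.82 to 10.7 CPM. The log2 fold change against LPS was -0.65 ± 0.14 (SE) for LPS+nAAT, -0.06 ± 0.14 for LPS+oxAAT and -0.45 ± 0.14 for LPS+recAAT. With library set as a term in the model it was -0.30 ± 0.25 for LPS+recAAT.

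Fosb (ENSMUSG00000003545, chr7:19302696-19310051, minus strand, 4 exons), a second FOS protein, was the least abundant of the genes. It ranged from 1.88 to 3.47 CPM in LPS+nAAT, 1.71 to 3.30 in LPS+oxAAT, 2.33 to 4.78 in LPS+recAAT, 1.80 to 3.41 in LPS and 2.24 to 3.93 CPM in air lungs. All groups overlapped. The log2 fold changes against LPS were 0.10 ± 0.24, 0.14 ± 0.24 and 0.44 ± 0.24 for LPS+nAAT, LPS+oxAAT and LPS+recAAT.

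Jun (ENSMUSG00000052684, chr4:95049034-95052222, minus strand, 1 exon), the main JUN subunit of AP-1, had the smallest spread between mice. It had 197, 190.5, 191, 170.3 and 216 CPM in LPS+nAAT lungs, 168, 194, 198, 201 and 228 CPM in LPS+oxAAT lungs, and 195, 235, 210.0, 198 and 193 CPM in LPS+recAAT lungs. LPS lungs had 225, 236, 249.9, 215 and 245 CPM, and air lungs had 201, 206 and 249 CPM. LPS lungs were the highest group on average at 234 ± 14.3 CPM (SD), and each AAT group reached into their range with 1 mouse. The log2 fold changes against LPS were -0.28 ± 0.09 for LPS+nAAT, -0.24 ± 0.09 for LPS+oxAAT and -0.18 ± 0.09 for LPS+recAAT, and 0.10 ± 0.10 for LPS over air. The exon of Jun overlaps that of the antisense gene Junos by 232 bases. The strand setting of the counting is not given in the sources used here, so how reads there were assigned is not known.

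Junb (ENSMUSG00000052837, chr8:84974484-84978718, minus strand, 1 exon), a JUN protein with weaker activity in many settings, averaged 64.9 ± 13.1 CPM in LPS+nAAT, 81.0 ± 11.4 in LPS+oxAAT, 82.9 ± 8.37 in LPS+recAAT, 71.1 ± 16.7 in LPS and 68.1 ± 9.30 CPM in air lungs (SD). The groups overlapped in every comparison. The log2 fold change was 0.32 ± 0.14 for LPS+oxAAT and 0.35 ± 0.14 for LPS+recAAT over LPS+nAAT. Its exon overlaps the opposite gene Prdx2 by 173 bases. Atf3 (ENSMUSG00000026628, chr1:191170296-191218039, minus strand, 4 exons) lay between 6.46 and 10.5 CPM in all 23 lungs. Its group means ran from 8.09 ± 0.914 CPM in air to 9.15 ± 0.838 CPM in LPS+recAAT lungs, and no log2 fold change in the 10 comparisons was larger than 0.18 ± 0.15.

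Egr1 (ENSMUSG00000038418, 2 exons) varied strongly between mice of a group. It had 26.1, 26.8, 18.9, 24.9 and 33.9 CPM in LPS+nAAT lungs. LPS+oxAAT lungs had 74.1, 56.2, 65.7, 72.8 and 28.3 CPM, and LPS+recAAT lungs had 44.8, 21.7, 33.1, 40.7 and 31.7 CPM. LPS lungs had 21.5, 31.9, 22.8, 54.6 and 54.6 CPM, and air lungs had 39.4, 48.3 and 42.4 CPM. Of the LPS+oxAAT lungs, 4 were above every other lung, and replicate 5105 lay within the LPS+nAAT range. LPS lungs ran from the LPS+nAAT range to above every air lung, with a coefficient of variation of 44.4%, against 10.4% in air lungs. The log2 fold change was 1.18 ± 0.27 for LPS+oxAAT over LPS+nAAT and 0.68 ± 0.27 for LPS+oxAAT over LPS. In the 2 LPS+oxAAT libraries of the first set Egr1 had 56.2 and 74.1 CPM, and in the 3 of the second set it ranged from 28.3 to 72.8 CPM.

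Nr4a1 (ENSMUSG00000023034, chr15:101254269-101274795, plus strand, 8 exons) had 23.3, 25.2, 19.9, 16.5 and 29.0 CPM in LPS+nAAT lungs. LPS+oxAAT lungs had 41.5, 45.4, 38.3, 39.7 and 19.7 CPM, and LPS+recAAT lungs had 24.7, 15.4, 20.2, 21.3 and 24.2 CPM. LPS lungs had 34.1, 36.3, 28.7, 50.9 and 36.9 CPM, and air lungs had 96.9, 50.9 and 44.7 CPM. All LPS+recAAT lungs were below all LPS lungs, while LPS+nAAT replicate 4105, at 29.0 CPM, just overlapped LPS replicate 1103, at 28.7 CPM. The group means, from the lowest, were 21.2 in LPS+recAAT, 22.8 in LPS+nAAT, 36.9 in LPS+oxAAT, 37.4 in LPS and 64.2 CPM in air, so that the first pair and the next pair each differed by less than their spread. The log2 fold change against LPS was -0.71 ± 0.22 for LPS+nAAT, -0.02 ± 0.22 for LPS+oxAAT and -0.82 ± 0.22 for LPS+recAAT. With library set as a term the last was -0.40 ± 0.38. That term rests on the LPS+oxAAT lungs alone, which include replicate 5105 of the second set at 19.7 CPM. For LPS over air it was -0.78 ± 0.25, and -0.35 ± 0.24 without air replicate 2101, the lung with 96.9 CPM.

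Csrnp1 (ENSMUSG00000032515, chr9:119971163-119984658, minus strand, 4 exons) had 26.0, 22.2, 23.8, 20.4 and 25.5 CPM in LPS+nAAT lungs. LPS+oxAAT lungs had 17.1, 17.9, 17.2, 19.9 and 30.2 CPM, and LPS+recAAT lungs had 14.4, 20.4, 23.2, 22.9 and 14.9 CPM. LPS lungs had 32.1, 57.1, 54.3, 60.9 and 31.7 CPM, and air lungs had 36.0, 66.5 and 65.4 CPM. No AAT lung reached the level of any LPS or air lung, and the nearest pair was LPS+oxAAT replicate 5105, at 30.2 CPM, and LPS replicate 1105, at 31.7 CPM. The means were 19.2 ± 4.30 in LPS+recAAT, 20.5 ± 5.55 in LPS+oxAAT and 23.6 ± 2.31 CPM in LPS+nAAT lungs (SD). The lungs of these groups overlapped. The means of 47.2 ± 14.2 CPM in LPS and 56.0 ± 17.3 CPM in air lungs differed by less than their spread (SD). The log2 fold change against LPS was -1.0 ± 0.21 for LPS+nAAT, -1.21 ± 0.21 for LPS+oxAAT and -1.31 ± 0.21 for LPS+recAAT. For LPS over air it was -0.25 ± 0.23.

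Csrnp1 was low in LPS+oxAAT lungs of both library sets. The LPS+oxAAT lungs of the first set had 17.1 and 17.9 CPM and those of the second set 17.2, 19.9 and 30.2 CPM. Limited to the first set, the log2 fold change of LPS+oxAAT over LPS was -1.43 ± 0.28, and with library set as a term that of LPS+recAAT over LPS was -1.67 ± 0.37. Neither was past the edgeR threshold. The term rests on the LPS+oxAAT lungs alone, which include replicate 5105 of the second set at 30.2 CPM. Its exons overlap those of the opposite gene 1700019L13Rik by 224 bases, and how reads there were assigned is not known here. The LPS and air lungs themselves split into lower values of 31.7 to 36.0 CPM in 3 mice and higher values of 54.3 to 66.5 CPM in 5 mice.

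Ier2 (ENSMUSG00000053560, chr8:84661331-84662852, minus strand, 1 exon) averaged 52.2 ± 8.39 CPM in LPS+nAAT, 55.7 ± 6.21 in LPS+oxAAT, 56.7 ± 5.92 in LPS+recAAT, 64.6 ± 7.70 in LPS and 63.8 ± 11.2 CPM in air lungs (SD). The log2 fold changes against LPS were -0.31 ± 0.12, -0.21 ± 0.12 and -0.19 ± 0.12 for LPS+nAAT, LPS+oxAAT and LPS+recAAT, and the groups overlapped in each. Ier3 (ENSMUSG00000003541, chr17:35821684-35822923, plus strand, 2 exons) averaged 107 ± 24.7 CPM in LPS+nAAT, 129 ± 27.0 in LPS+oxAAT, 129.8 ± 19.2 in LPS+recAAT, 111 ± 22.2 in LPS and 115 ± 25.2 CPM in air lungs (SD). Its groups also overlapped in all comparisons.

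**Figure D2:**
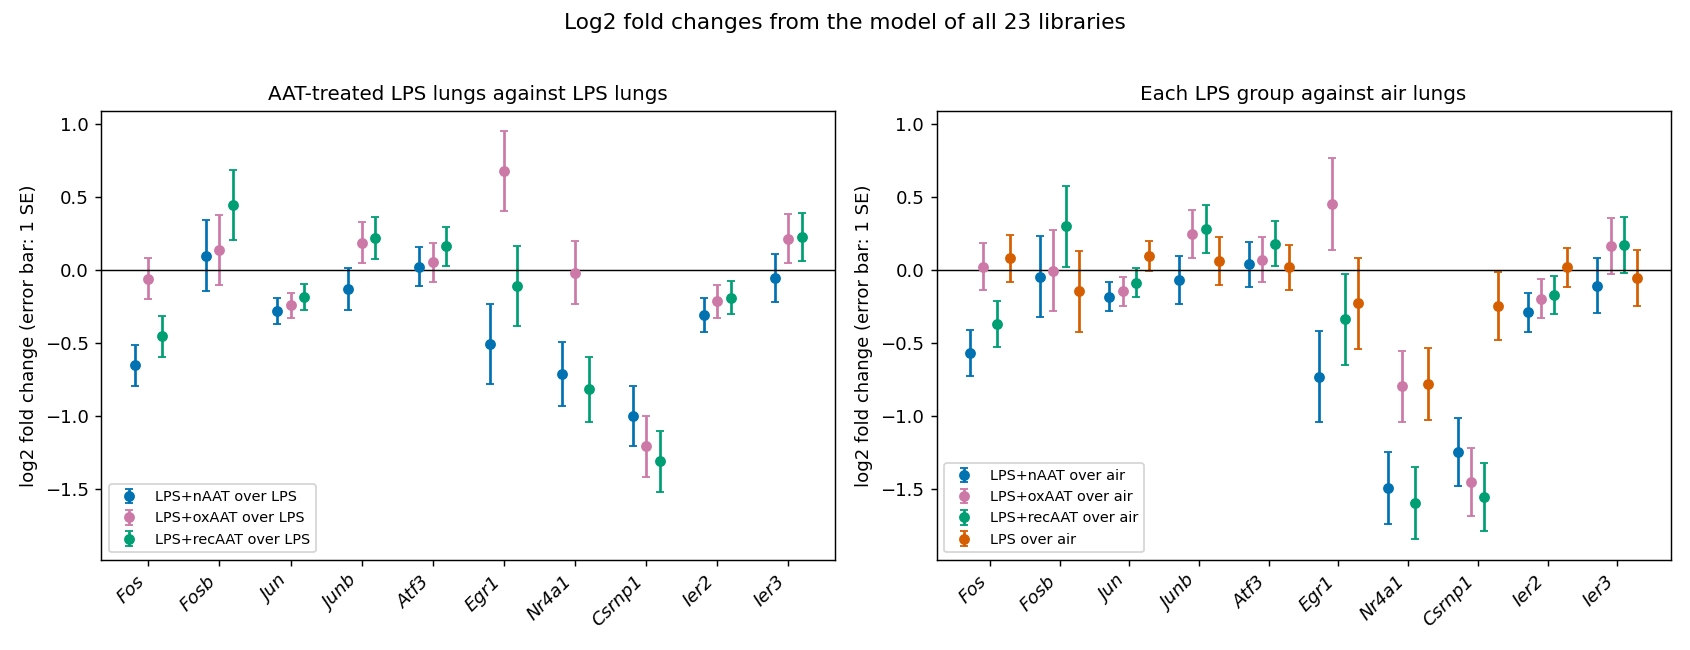
Log2 fold changes with 1 SE (vertical axes) of the 10 genes, for each AAT group over LPS (left) and for each LPS group over air (right), from a single model of all 23 libraries. Csrnp1 has the lowest value against LPS for each AAT preparation, at -1.0, -1.21 and -1.31, while Atf3 stays within 0.18 of 0 in both panels.

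To see how these differences stood among all genes, the counts of genes called by edgeR's quasi-likelihood test (Benjamini-Hochberg adjusted p under 0.05) are given with the share called among all 17148 tested genes. The 10 genes were selected on these same values, so nothing is read from the counts. The comparisons of the 3 AAT groups share the same LPS and air libraries, and they are set side by side only.

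LPS over air called 0 of the 10 genes, while 2.71% of all genes were called higher and 1.68% lower. At an unadjusted p under 0.05 it was 1 gene, and the DESeq2 Wald test called 1. The gene was Nr4a1, which edgeR also called without LPS replicate 1104 or without air replicate 2105. Of the 10 log2 fold changes, 5 were above and 5 below 0, with a median of -0.02, against -0.01 over all genes, and the largest in size were -0.78 for Nr4a1 and -0.25 for Csrnp1.

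LPS+nAAT over LPS called 2 genes lower, Fos and Csrnp1, and 1 gene, Csrnp1, was lower with no overlap of the groups. Over all genes, 0.449% were called higher, 0.146% were called lower and 1.05% were lower without overlap. The median log2 fold change of the 10 was -0.29, against 0.00 over all genes, and 8 of 10 were below 0. The count was 0 without LPS replicate 1102 or 1104 or without LPS+nAAT replicate 4102, 4103 or 4104, and it was 1 without replicate 4101 or 4105. Without LPS replicate 1104 the log2 fold change of Csrnp1 was -0.89 and that of Fos -0.57.

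LPS+oxAAT over LPS called 1 gene lower, Csrnp1, which was also the 1 gene lower without overlap. The background was 3.94% called higher, 0.77% called lower and 1.03% lower without overlap. The median was 0.02, against -0.01 over all genes. Csrnp1 was not called when only the first library set was used or when library set was a term, with counts of 0 in both. Calls fell over all genes in these settings, to 4 higher and 9 lower of 17179 genes in the first set and to 2 higher and 4 lower of 17148 with the term.

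LPS+recAAT over LPS called 3 genes lower, Fos, Nr4a1 and Csrnp1, and Nr4a1 and Csrnp1 were the 2 genes lower without overlap. Over all genes, 6.47% were called higher, 2.02% were called lower and 1.98% were lower without overlap. The median was -0.15, against -0.01 over all genes. The count was 1 without LPS replicate 1104 or without LPS+recAAT replicate 6102 or 6103, and 0 with library set as a term, when 0 of all 17148 genes were called in either direction. Fos alone was also not called without LPS replicate 1102 or 1105 or without LPS+recAAT replicate 6105.

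Against air, LPS+nAAT called 3 genes lower (Fos, Nr4a1 and Csrnp1), and 4 genes (those 3 and Egr1) were lower without overlap. The background was 3.95% called higher, 1.67% called lower and 6.24% lower without overlap. For LPS+oxAAT over air 1 gene, Csrnp1, was called lower and was lower without overlap, where 2.72% of all genes were called higher, 1.04% called lower and 4.35% lower without overlap. For LPS+recAAT over air 2 genes, Nr4a1 and Csrnp1, were called lower and were lower without overlap, where 4.21% of all genes were called higher, 2.62% called lower and 7.04% lower without overlap. Fos was not called in LPS+nAAT over air without air replicate 2102 or 2105 or without LPS+nAAT replicate 4101, 4102 or 4105, and without air replicate 2105 its log2 fold change was -0.41. Nr4a1 was called in LPS+oxAAT over air without that same replicate, which made the count 2.

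Between the AAT preparations edgeR called none of the 10 genes. For LPS+oxAAT over LPS+nAAT 0.344% of all genes were called. Fos was higher in every LPS+oxAAT lung than in every LPS+nAAT lung, with 36.2 to 53.8 CPM against 26.7 to 34.1 CPM, and 1.03% of all genes were higher without overlap in that way. At an unadjusted p under 0.05 the count was 4, and the DESeq2 Wald test called 2 genes, Fos and Egr1. These 2 were also called by edgeR without LPS+oxAAT replicate 5102 or without replicate 5105. For LPS+recAAT over LPS+nAAT 1.93% of all genes were called, and for LPS+recAAT over LPS+oxAAT 0.0175%. For LPS+recAAT over LPS+oxAAT the log2 fold changes of Nr4a1 and Egr1 were -0.80 ± 0.22 and -0.79 ± 0.27, both for lower levels in LPS+recAAT lungs. At an unadjusted p under 0.05 these comparisons had 1 and 3 of the 10 genes, and the DESeq2 Wald test called 0 in each.

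To ask whether the genes varied together between mice of the same group, log2 CPM was centred on the group mean and correlated over the 23 libraries. These are descriptions over libraries that share a tissue and a scaling, and they carry no test. The 45 pairs had a median Pearson's r of 0.27, with a range from -0.49 to 0.81, and 8 pairs were above 0.5. Junb and Ier2 had the highest value at 0.81, followed by Fos and Egr1 at 0.67, Egr1 and Nr4a1 at 0.64, and Junb and Atf3 at 0.60. Csrnp1 was the 1 gene of the 10 with a negative median r. Csrnp1 had a median r of -0.21 with the other 9 genes and an r of -0.46 with Nr4a1, and its highest value was 0.45, with Jun. Jun and Ier3 each had a median r of 0.17. For Jun the values ran from -0.49 with Nr4a1, with -0.24 for Fos, its partner in AP-1, to 0.30 with Atf3 and 0.45 with Csrnp1.

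**Figure D3:**
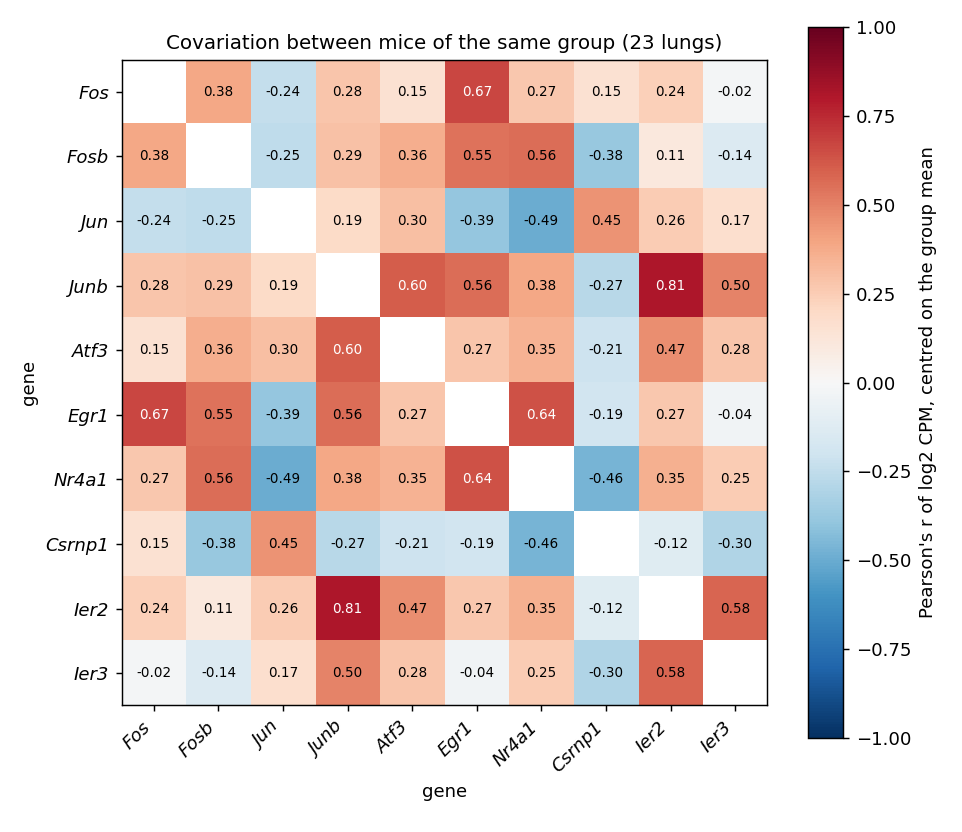
Pearson's r of log2 CPM, centred on the group mean, for each pair of the 10 genes over 23 lungs, with red for positive and blue for negative values. Junb and Ier2 reach 0.81, and the row of Csrnp1 is negative except against Fos (0.15) and Jun (0.45).

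By the same centred measure, the genes outside the 10 whose pattern was most like their mean over the 23 libraries were Il12a (r = 0.77), Lif (0.76), Plpp5 (0.75), Col6a4 (0.75), Slc26a4 (0.75), Loxl1 (0.74), Prdm6 (0.74) and Spon2 (0.73). Within the 10, the correlation of a gene with the mean of the other 9 ran from -0.34 for Csrnp1 to 0.70 for Junb. Over values not centred on the group, the most alike were Dusp1 (0.81), Zfp963 (0.80), Map2k6 (0.79), Ralgds (0.79), Cuedc1 (0.78), Anks6 (0.78), Ncald (0.78) and Zfp36 (0.77). Dusp1 and Zfp36 are themselves early response genes.

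Related genes were examined in 6 lists, with each gene tested by edgeR's quasi-likelihood test over all genes. The lists were chosen with earlier results of these data known, so nothing is read from the counts called in them. The shares of all genes called in each comparison are those given above. Dusp1 was in both the early response and the MAPK feedback list. Up to 3 called genes of smallest adjusted p were picked per list and comparison, and the text gives these. Among 15 tested other AP-1 family genes, none was called in LPS+nAAT over LPS (2 at an unadjusted p under 0.05, and 1 by the DESeq2 Wald test). In LPS+oxAAT lungs Maf rose by a log2 fold change of 0.61 ± 0.14 (adjusted p = 0.0144) and Atf2 by 0.40 ± 0.10 (adjusted p = 0.0203) over LPS, with 33.0 ± 6.17 CPM of Maf in LPS+oxAAT and 21.7 ± 5.62 CPM in LPS lungs (SD, n = 5 each, edgeR). In LPS+recAAT lungs Maf and Atf2 also rose, and Atf4, a factor of the stress response, fell by 0.34 ± 0.11 (edgeR adjusted p = 0.0447). In LPS+oxAAT, the call of Maf was lost without LPS replicate 1102 or 1104 or LPS+oxAAT replicate 5103, and that of Atf2 also without replicate 5104 or 5105. The call of Atf4 was lost without LPS replicate 1101 or 1102 or LPS+recAAT replicate 6102, 6103 or 6104. Against air, Maff rose in LPS+recAAT lungs by 0.56 ± 0.14 (edgeR adjusted p = 0.00936), a call lost without air replicate 2102 or 2105. The family had a median log2 fold change of -0.11, -0.07 and -0.04 for LPS+nAAT, LPS+oxAAT and LPS+recAAT over LPS, against 0.00, -0.01 and -0.01 over all genes.

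Among 9 tested relatives of the EGR, NR4A, CSRNP and IER genes, Egr2 rose in LPS over air by a log2 fold change of 1.20 ± 0.24 (edgeR adjusted p = 0.00269), with 18.5 ± 5.82 CPM in LPS and 8.07 ± 1.73 CPM in air lungs (SD, n = 5 and 3). It also rose over air in LPS+oxAAT lungs, by 0.98 ± 0.23 (edgeR adjusted p = 0.0136), and in LPS+recAAT lungs, by 0.76 ± 0.23 (edgeR adjusted p = 0.0488). Egr1, its close relative, had -0.23 ± 0.31 for LPS over air. Nr4a2 fell over air in LPS+nAAT lungs by 0.74 ± 0.17 (edgeR adjusted p = 0.00792) and in LPS+oxAAT lungs by 0.61 ± 0.17 (edgeR adjusted p = 0.0438). Ier5, a relative of Ier2, rose by 0.47 ± 0.12 in LPS+nAAT over air (edgeR adjusted p = 0.0196), a call lost without air replicate 2102. Csrnp2, a relative of Csrnp1, fell by 0.50 ± 0.13 in LPS+nAAT over air (edgeR adjusted p = 0.0215) and was not called against LPS. None of the 9 was called in the comparisons of the AAT groups with LPS. In LPS+nAAT, LPS+oxAAT and LPS+recAAT, 4, 1 and 3 had an unadjusted p under 0.05, and the DESeq2 Wald test called 0. Over all genes, 0.449%, 3.94% and 6.47% were called higher there and 0.146%, 0.77% and 2.02% lower. Single libraries decided several of these calls against air. That of Egr2 was lost without air replicate 2102 or 2105 in LPS+oxAAT, and without any 1 air replicate or LPS+recAAT replicate 6101, 6103 or 6105 in LPS+recAAT. That of Nr4a2 was lost without air replicate 2102 in LPS+nAAT, and without any 1 air replicate or LPS+oxAAT replicate 5102, 5103 or 5104 in LPS+oxAAT. That of Csrnp2 was lost without air replicate 2101 or 2102 or LPS+nAAT replicate 4102.

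Among 28 tested other early response genes, 3 fell and 1 rose in LPS+nAAT over LPS, 6 fell and 2 rose in LPS+oxAAT, and 7 fell and 1 rose in LPS+recAAT. Over all genes, 0.146%, 0.77% and 2.02% were called lower in these comparisons, and 0.449%, 3.94% and 6.47% were called higher. The median log2 fold changes of the list were -0.19, -0.26 and -0.18, against 0.00, -0.01 and -0.01 over all genes. Zfp36, which encodes a protein that destabilizes AU-rich mRNAs, averaged 112 ± 11.5 CPM in LPS+nAAT and 247 ± 47.4 CPM in LPS lungs (SD, n = 5 each), a log2 fold change of -1.14 ± 0.14 (edgeR adjusted p = 0.000349). It fell by 0.90 ± 0.14 in LPS+recAAT over LPS (edgeR adjusted p = 0.000665), where Btg2, an antiproliferative gene, fell by 0.43 ± 0.07 (edgeR adjusted p = 0.000840). Klf2, a factor of endothelial quiescence, fell by 0.84 ± 0.16 in LPS+nAAT over LPS (edgeR adjusted p = 0.0148), a call lost without LPS+nAAT replicate 4104 (adjusted p = 0.0545). Klf10, a factor induced by TGF-beta, rose against LPS in all 3 AAT groups, by 0.94 ± 0.12, 0.86 ± 0.12 and 1.24 ± 0.12 for LPS+nAAT, LPS+oxAAT and LPS+recAAT (edgeR adjusted p = 0.000606, 0.000767 and 7.14e-06). In LPS+oxAAT lungs Cebpd fell by 1.22 ± 0.22 (edgeR adjusted p = 0.00427) and Myc by 0.62 ± 0.12 (edgeR adjusted p = 0.00601).

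In LPS over air, Myc and Nfil3 were the 2 other early response genes called, and both rose. Myc averaged 17.5 ± 2.47 CPM in LPS and 7.79 ± 0.101 CPM in air lungs (SD, n = 5 and 3), a log2 fold change of 1.17 ± 0.15 (edgeR adjusted p = 1.26e-05). Nfil3 rose by 0.74 ± 0.18 (edgeR adjusted p = 0.0171), a call lost without air replicate 2101 or 2105. Against air, 8 genes of this list fell in LPS+nAAT, 6 in LPS+oxAAT and 6 in LPS+recAAT lungs, and 3, 2 and 3 rose. Over all genes, 1.67%, 1.04% and 2.62% were called lower in these comparisons, and 3.95%, 2.72% and 4.21% were called higher. Zfp36 fell over air in LPS+nAAT, LPS+oxAAT and LPS+recAAT lungs, with log2 fold changes of -1.41 ± 0.16, -0.88 ± 0.16 and -1.17 ± 0.16 (edgeR adjusted p = 9.11e-07, 0.000852 and 1.46e-05). Klf2 fell in the same 3 groups, with -1.34 ± 0.18, -1.07 ± 0.18 and -1.41 ± 0.18 (edgeR adjusted p = 1.14e-05, 0.000301 and 5.94e-06). Klf10 rose over air by 0.69 ± 0.15 in LPS+oxAAT and by 1.07 ± 0.15 in LPS+recAAT lungs (edgeR adjusted p = 0.00427 and 2.05e-05). Ccn1, a secreted matrix protein, rose in LPS+oxAAT over LPS+nAAT by 0.81 ± 0.15 (edgeR adjusted p = 0.0262), with 138 ± 32.8 CPM in LPS+oxAAT and 78.7 ± 10.4 CPM in LPS+nAAT lungs (SD, n = 5 each). That call was lost without LPS+nAAT replicate 4102, 4103 or 4104 or LPS+oxAAT replicate 5103 or 5104.

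**Figure D4:**
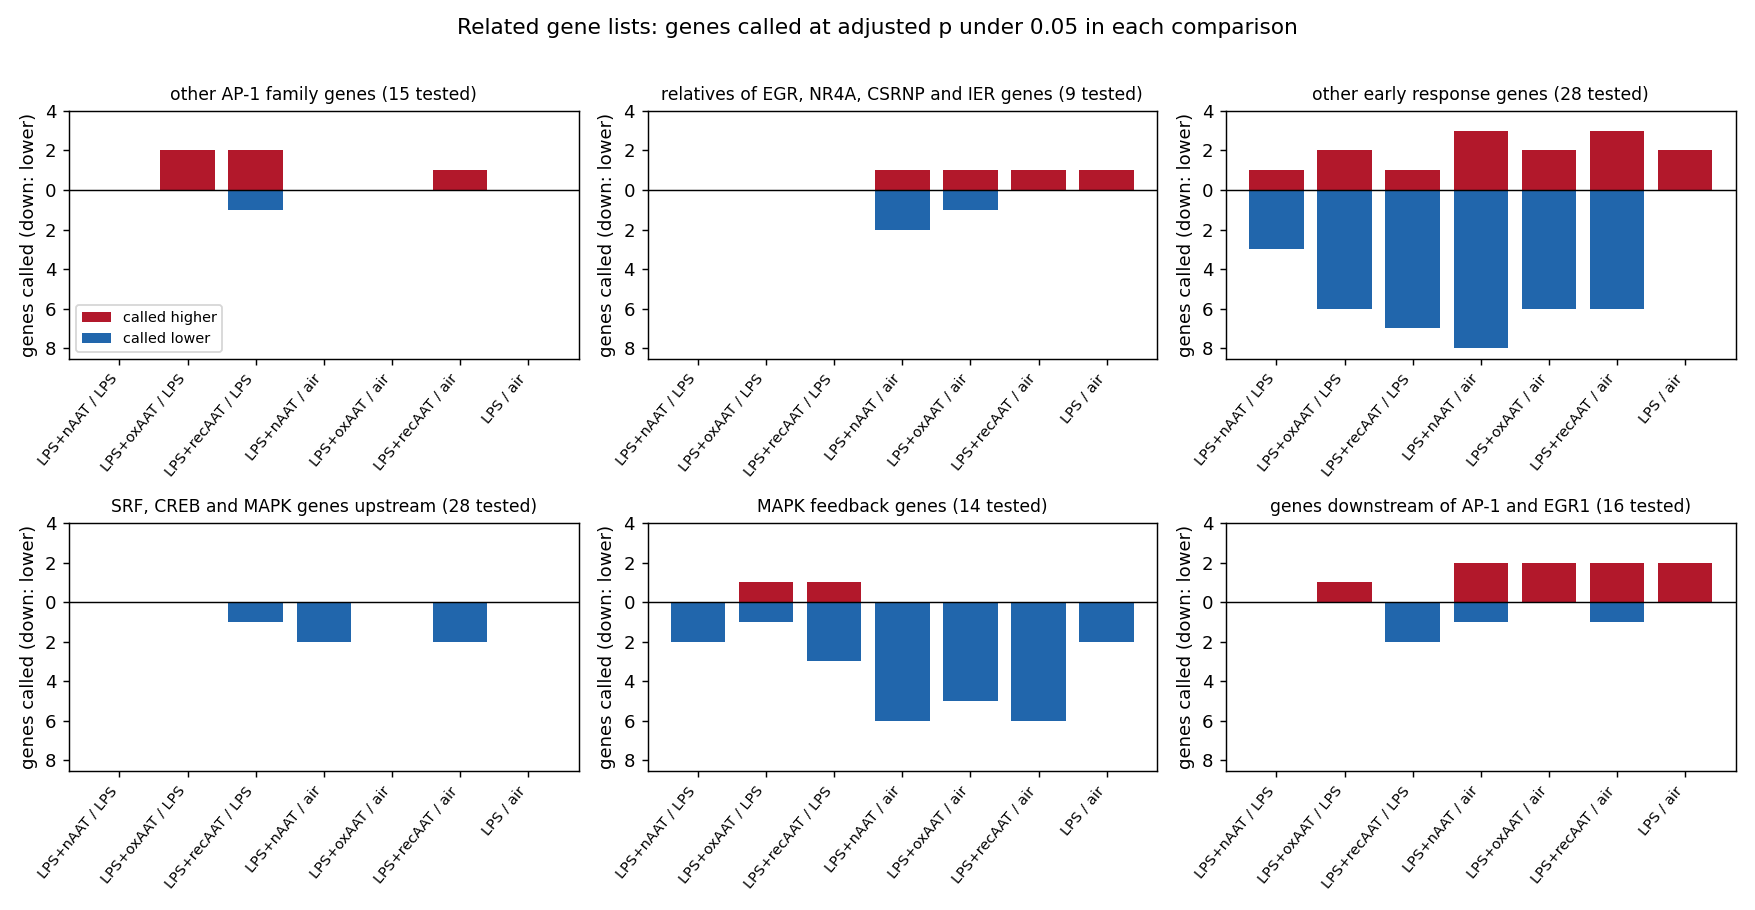
Number of genes of each related list called higher (red, up) or lower (blue, down) at an edgeR adjusted p under 0.05, by comparison. The other early response genes have 3, 6 and 7 genes lower in LPS+nAAT, LPS+oxAAT and LPS+recAAT over LPS, and the MAPK feedback genes have 6, 5 and 6 lower in those groups over air. Over all genes, 0.146%, 0.77% and 2.02% were called lower over LPS, and 1.67%, 1.04% and 2.62% over air. Dusp1 is counted in both lists.

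Of the 28 genes of the SRF, CREB and MAPK proteins that act upstream, 1 was called lower in LPS+recAAT over LPS. In LPS+nAAT over air and in LPS+recAAT over air 2 were called lower, and none was called higher in these comparisons. Over all genes, 2.02%, 1.67% and 2.62% were called lower there and 6.47%, 3.95% and 4.21% higher. Srf, which encodes serum response factor, fell by 0.26 ± 0.08 in LPS+recAAT over LPS (edgeR adjusted p = 0.0488), by 0.33 ± 0.09 in LPS+nAAT over air (adjusted p = 0.0332) and by 0.34 ± 0.09 in LPS+recAAT over air (adjusted p = 0.0239). The call of Srf against LPS was lost without any 1 of 9 of the 10 libraries compared, LPS replicate 1105 excepted. Against air it was lost without air replicate 2101 or 2105 in both groups, without LPS+nAAT replicate 4102, 4103 or 4104, and without LPS+recAAT replicate 6102. Map2k6, a kinase that activates p38, fell over air by 1.02 ± 0.21 in LPS+nAAT lungs (edgeR adjusted p = 0.00271) and by 0.76 ± 0.21 in LPS+recAAT lungs (edgeR adjusted p = 0.0261), the second call being lost without air replicate 2105 or LPS+recAAT replicate 6102. In LPS over air and in LPS+nAAT and LPS+oxAAT over LPS none of the 28 was called. At an unadjusted p under 0.05 there were 6, 6 and 8, and the DESeq2 Wald test called 1, 0 and 2. Over all genes, 2.71%, 0.449% and 3.94% were called higher there and 1.68%, 0.146% and 0.77% lower.

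The 14 MAPK feedback genes, which encode phosphatases and adaptors that dampen MAP kinase signals, included several that fell. In LPS over air 2 fell and 0 rose, with a median log2 fold change of -0.32, against -0.01 over all genes. Of all genes 1.68% were called lower and 2.71% higher there. Spry4 averaged 35.6 ± 5.80 CPM in LPS and 52.1 ± 2.56 CPM in air lungs (SD, n = 5 and 3), a log2 fold change of -0.55 ± 0.14 (edgeR adjusted p = 0.0259). That call was lost without LPS replicate 1101, 1102 or 1105 or without any 1 air replicate. Spry2 fell by 0.40 ± 0.10 (edgeR adjusted p = 0.0225), a call lost without LPS replicate 1101 or 1105 or air replicate 2101 or 2105. Spry4 fell further in LPS+nAAT lungs, to 20.97 ± 1.38 CPM, by 0.77 ± 0.13 against LPS (edgeR adjusted p = 0.00773). Dusp1, a nuclear phosphatase of p38 and JNK that is itself an early response gene, fell by 0.70 ± 0.15 in LPS+nAAT over LPS (edgeR adjusted p = 0.0270), a call lost without LPS replicate 1102 or 1104 or LPS+nAAT replicate 4102, 4103 or 4104. Against LPS, 0 rose and 2 fell in LPS+nAAT, 1 rose and 1 fell in LPS+oxAAT, and 1 rose and 3 fell in LPS+recAAT lungs. The shares of all genes called in these comparisons were 0.449%, 3.94% and 6.47% higher and 0.146%, 0.77% and 2.02% lower. Spred1, an inhibitor of RAS signalling, rose by 0.56 ± 0.15 in LPS+oxAAT (edgeR adjusted p = 0.0284), a call lost without LPS replicate 1101, 1102 or 1104 or LPS+oxAAT replicate 5103, 5104 or 5105. In LPS+recAAT lungs Spry4 fell by 0.60 ± 0.13 and Dusp1 by 0.65 ± 0.15 (edgeR adjusted p = 0.00428 and 0.00670). Errfi1, whose protein blocks the EGF receptor, fell by 0.86 ± 0.15 in LPS+oxAAT (edgeR adjusted p = 0.00376) and by 0.88 ± 0.15 in LPS+recAAT over LPS (edgeR adjusted p = 0.00118). Against air, 6, 5 and 6 of the 14 fell in LPS+nAAT, LPS+oxAAT and LPS+recAAT lungs and none rose. The shares of all genes called there were 1.67%, 1.04% and 2.62% lower and 3.95%, 2.72% and 4.21% higher. The log2 fold changes of Spry4 were -1.31 ± 0.14, -0.97 ± 0.14 and -1.15 ± 0.14 (edgeR adjusted p = 7.13e-07, 8.43e-05 and 5.19e-06). Errfi1 had -0.94 ± 0.17, -1.28 ± 0.17 and -1.30 ± 0.17 (edgeR adjusted p = 0.000797, 2.50e-05 and 1.36e-05). Dusp1 had -1.13 ± 0.16, -0.70 ± 0.17 and -1.07 ± 0.16 (edgeR adjusted p = 4.74e-05, 0.0126 and 9.24e-05), and in LPS+oxAAT its call was lost without air replicate 2102 or 2105.

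Of the 16 tested genes downstream of AP-1 and EGR1, Timp1, an inhibitor of matrix proteases, and Tnf were the 2 called in LPS over air. Timp1 averaged 14.4 ± 2.26 CPM in LPS and 5.14 ± 0.890 CPM in air lungs (SD, n = 5 and 3), a log2 fold change of 1.48 ± 0.17 (edgeR adjusted p = 4.46e-06). Tnf rose by 1.49 ± 0.26 (edgeR adjusted p = 0.000630). Both also rose over air in each AAT group. Areg, a ligand of the EGF receptor, averaged 1.35 ± 0.434 CPM in LPS+recAAT and 3.49 ± 0.890 CPM in LPS lungs (SD, n = 5 each), a log2 fold change of -1.38 ± 0.30 (edgeR adjusted p = 0.00509). Plaur fell by 0.40 ± 0.11 in the same comparison (edgeR adjusted p = 0.0206), and in LPS+oxAAT over LPS Mmp13 rose by 1.15 ± 0.29 (edgeR adjusted p = 0.0238). The call of Plaur was lost without LPS replicate 1102 or 1104 or LPS+recAAT replicate 6101 or 6102, and that of Mmp13 without LPS replicate 1101, 1102 or 1104 or LPS+oxAAT replicate 5103, 5104 or 5105. The call of Tnf in LPS+nAAT over air was lost without air replicate 2102. Areg also fell over air, with -1.28 ± 0.32 in LPS+nAAT and -1.78 ± 0.33 in LPS+recAAT lungs (edgeR adjusted p = 0.0147 and 0.000753), the first call being lost without air replicate 2101. None of the 16 was called in LPS+nAAT over LPS, with 2 at an unadjusted p under 0.05 and 0 by the DESeq2 Wald test. Over all genes, 0.449% were called higher and 0.146% lower there.

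Library set moved with the calls of LPS+oxAAT and LPS+recAAT lungs. With library set as a term, none of the 8 related genes named in LPS+oxAAT over LPS was called (adjusted p = 0.0820 to 0.991), and none of the 12 named in LPS+recAAT over LPS (adjusted p = 0.201 to 0.954, edgeR in both). Under that term 2 of all 17148 genes were called higher and 4 lower in LPS+oxAAT over LPS, and 0 in either direction in LPS+recAAT over LPS, so the lost calls are not particular to these lists. The log2 fold changes with the term differed from gene to gene. They rest on the difference between the sets within the LPS+oxAAT lungs alone. Klf10 had 0.78 ± 0.16 and Cebpd -1.21 ± 0.32 in LPS+oxAAT over LPS, while Maf had 0.33 ± 0.16 and Spred1 0.16 ± 0.16. In LPS+recAAT over LPS, Klf10 had 1.11 ± 0.21, Errfi1 -1.10 ± 0.27 and Spry4 -1.02 ± 0.20, while Zfp36 had -0.44 ± 0.22 and Atf2 0.06 ± 0.15.

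Against air, where 275 genes were still called higher and 61 lower in LPS+oxAAT and 222 higher and 56 lower in LPS+recAAT, the term ended the calls of 4 of the 10 related genes named in LPS+oxAAT (Nr4a2, Zfp36, Klf10 and Dusp1). It ended those of 6 of the 13 named in LPS+recAAT (Maff, Egr2, Zfp36, Srf, Map2k6 and Dusp1). The call of Ccn1 in LPS+oxAAT over LPS+nAAT was also lost (edgeR adjusted p = 0.147), when 1 of all genes was called. All 5 named in LPS+nAAT over LPS were called with the term, with edgeR adjusted p up to 0.0209. Every library of these groups was of the first set, so the term cannot test those calls. Of the 5, Dusp1 was not called in the first library set alone or with only the 2 groups compared. With only the LPS+oxAAT and LPS libraries in the model, Maf, Atf2, Myc, Errfi1, Spred1 and Mmp13 were not called, and over all 16147 genes 9 were called higher and 6 lower.

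Markers of other cells also varied between mice of a group. The summed level of 4 B cell markers ranged from 77.2 to 124 CPM in LPS+nAAT, 69.3 to 217 in LPS+oxAAT, 70.0 to 134 in LPS+recAAT, 108 to 156 in LPS and 122 to 148 CPM in air lungs, and none of the 4 was at 0. Centred on the group, it had an r of 0.67 with Ier2, 0.63 with Nr4a1 and 0.56 with Junb over the 23 libraries. The sum of 6 markers of monocytes and recruited macrophages was 232 to 297 CPM in LPS+nAAT, 272 to 307 in LPS+oxAAT, 291 to 378 in LPS+recAAT, 282 to 339 in LPS and 127 to 174 CPM in air lungs, and none of the 6 was at 0 in all libraries. Every LPS-exposed lung was above every air lung, so this sum moved with each comparison against air. Of its 6 markers Cd14 had the highest median, at 115 CPM, and the widest range, from 25.3 to 186 CPM over the 23 lungs. Centred on the group, the sum had an r of -0.67 with Fosb and 0.14 with Csrnp1. The sum of 6 neutrophil markers was 215 to 651 CPM in LPS+nAAT, 142 to 237 in LPS+oxAAT and 178 to 385 in LPS+recAAT lungs. It was 245 to 338 in LPS and 181 to 228 CPM in air lungs, so every LPS lung was above every LPS+oxAAT and air lung. Centred on the group, the neutrophil sum had an r of -0.53 with Jun, 0.30 with Nr4a1 and -0.24 with Csrnp1. The sum of 6 heart muscle markers was more variable, at 39.5 to 556 CPM in LPS+nAAT, 44.1 to 733 in LPS+oxAAT, 127 to 539 in LPS+recAAT, 123 to 496 in LPS and 107 to 485 CPM in air lungs. It had an r of -0.64 with Atf3 and -0.60 with Ier3, and of its 6 markers Nppa had a median of 0 CPM. The sum of 6 alveolar macrophage markers was 446 to 714 CPM in LPS+nAAT, 319 to 492 in LPS+oxAAT, 214 to 477 in LPS+recAAT, 337 to 462 in LPS and 308 to 357 CPM in air lungs, with an r of -0.52 with Egr1. Its r with Csrnp1 was 0.32. Of its 6 markers Chil3 had the highest median, at 281 CPM, with a range from 127 to 558 CPM. Ear2 came next with a median of 70.5 CPM, so the sum mainly follows Chil3. The part of these cells in the levels of the 10 genes was not tested.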

How the data were processed

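RNA-seq was measured in 23 lungs, 1 library per mouse. Per the labels' protocols, libraries were made from polyadenylated RNA with a stranded kit. The submitters' processing notes name FastQC 0.11.8, Trimmomatic 0.36 and 0.38, STAR 2.4.0.1, HTSeq 0.11.1 and the build GRCm38, without their order. The authors deposited raw counts per Ensembl gene. How strand was set in counting, and which annotation release was used, is not stated in the sources at hand. The summary lines that name no gene were left out: no feature (6.79% to 13.1% of all reads in the table), ambiguous (1.12% to 1.39%) and not unique (4.09% to 6.08%).

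Genes were named from GENCODE. Counts were filtered with filterByExpr, scaled by TMM and tested with edgeR 4.0.16 (quasi-likelihood, R 4.3.3) in a single model of the 5 groups, with Benjamini-Hochberg adjustment over all 17148 genes. DESeq2 1.42.0 was an alternative. Log2 CPM used a prior count of 2. P-values reflect variation among these individual mice, and depth limits precision most for Fosb. The 10 genes and the related lists were chosen with earlier results of these data known. Named related genes were, per list and comparison, up to 3 called genes of smallest adjusted p, and genes of similar pattern were the 8 with the highest correlation to the mean of the 10 genes, at an average log2 CPM of at least 1. Replicate numbers are those in the titles. The alternatives were other size factors, filters, group sets, a library-set term, the first library set, a GC correction, a replicate block and leaving out each library.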

Additional observations from a re-analysis of the deposited data

Results flagged for a closer look

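Of 40 pairs of a gene and a group of 5 lungs, 3 had a lung whose gap to its nearest neighbour exceeded 0.71 of the group's range, and chance alone gives about 1 in 20 such groups. All 3 were LPS+oxAAT replicate 5105. Its Csrnp1 level was 30.2 CPM, where the other LPS+oxAAT lungs had 17.1 to 19.9 CPM. Its Nr4a1 level was 19.7 CPM, where the others had 38.3 to 45.4 CPM. Its Fosb level was 1.71 CPM, where the others had 2.92 to 3.30 CPM. The 3 values come from 1 library and are not independent.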

How the results depend on the processing

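Numbers of the 10 genes called were small, so single libraries moved them. For LPS over air (0 called), the DESeq2 Wald test gave 1, removing a GC curve gave 1, and leaving out each library gave 0 to 1. For LPS+nAAT over LPS (2 called), the count was 1 without the low-count filter, 1 with only the 2 groups compared, 1 in the first library set and 1 with the GC curve removed, and leaving out each library gave 0 to 2. For LPS+oxAAT over LPS (1 called), it was 0 with only the 2 groups compared, 0 with library set as a term and 0 in the first set. For LPS+recAAT over LPS (3 called), it was 0 with library set as a term and 1 with the GC curve removed, and leaving out each library gave 1 to 3. For LPS+oxAAT over air (1 called), the Wald test gave 2 and leaving out each library 1 to 2, and for LPS+recAAT over air (2 called) the library-set term gave 1. For LPS+oxAAT over LPS+nAAT (0 called), the Wald test and the GC correction each gave 2, and leaving out each library gave 0 to 2. The cause was not tested. Of the log2 fold changes of the 10 genes under these alternatives, 1669 moved by less than their spread, 11 by more, and 0 turned sign after a call. With the last digit of the replicate number as a replicate block, the counts of calls stayed at 0, 2, 1, 3, 3, 1, 2, 0, 0 and 0 over the 10 comparisons. Over all genes the block changed the calls. For LPS over air they went from 465 higher and 288 lower to 655 and 709. For LPS+nAAT over LPS they went from 77 and 25 to 180 and 68. Of 42 same-digit pairs 16 had a correlation over 0.1, and there were 0 comparisons in which every pair was over 0.1. Whether mice of the same digit shared a block was not tested. Depth limited Fosb most, with as few as 36 reads.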
